A study of Mus musculus with 16 samples.

Results

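The expression of mouse Sod1 and of 9 further genes of the antioxidant defence was examined in the lumbar spinal cord of SOD1G93A mice, a model of amyotrophic lateral sclerosis. The 10 genes were Sod1, Ccs, Sod2, Sod3, Cat, Gpx1, Gpx4, Prdx2, Prdx5 and Prdx6, and every array probe whose annotated gene name was one of these was taken, which gave 18 of the 41174 probes on the array. Sod1, Ccs, Sod2, Sod3, Cat, Gpx1, Gpx4 and Prdx5 had 3, 2, 1, 1, 1, 1, 1 and 1 probes, Prdx2 had 3 and Prdx6 had 4. Lumbar cord RNA of male mice on the B6SJL background was hybridised on 16 two-colour arrays, with 4 arrays in each of 4 groups: non-transgenic mice (here wild-type) at 40 and 80 days of age and SOD1G93A mice at 40 and 80 days, ages that the study counts as pre-symptomatic. SOD1G93A mice carry a human SOD1 transgene with a disease mutation, expressed broadly from its own promoter, and also keep their own Sod1, so the mouse gene is present in every group. On each array the cord sample was labelled with Cy3 and a common reference with Cy5. The reference was a pool of RNA from neonatal heart, kidney and liver of both genotypes, and all values below are log2 ratios of cord over reference, so that a difference of 1 between groups is a 2-fold difference.

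Superoxide is converted to hydrogen peroxide by superoxide dismutases, of which Sod1 acts in the cytosol and in the space between the mitochondrial membranes, Sod2 in the mitochondrial matrix and Sod3 outside the cell. Ccs is the chaperone that inserts copper into Sod1. The peroxide is then removed by catalase (Cat) in peroxisomes, by the glutathione peroxidases Gpx1 and Gpx4 (the latter acting on lipid peroxides in membranes) and by peroxiredoxins, of which Prdx2 is cytosolic, Prdx5 is found in mitochondria, peroxisomes and cytosol, and Prdx6 reduces phospholipid peroxides and in nervous tissue is known mainly from astrocytes.

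Since a difference between arrays is read at a probe, the probes on which the results turn are shown first, 5' to 3' in the sense of the transcript, with coordinates of the mouse mm7 assembly as annotated for the array. Of these probes 5 are given by their first 30 bases and 4 whole, and the capitals in the Sod1 probe mark the TAA that ends its reading frame.
Sod1 A_51_P367381: cagTAAacattccctgtgtggtctgagtct
Cat A_52_P679769: agggcttagcaatcatttaacagaaacatg
Sod2 A_51_P172573: ggctggtttatagtagtgtagagcattgca
Gpx4 A_51_P462448: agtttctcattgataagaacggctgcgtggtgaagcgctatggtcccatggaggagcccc
Prdx2 A_51_P147207: tgctagattttcctccactctctgaagggg
Prdx2 A_52_P550034: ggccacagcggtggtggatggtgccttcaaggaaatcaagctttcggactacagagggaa
Prdx2 A_52_P893440: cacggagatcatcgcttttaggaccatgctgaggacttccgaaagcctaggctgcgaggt
Prdx6 A_51_P496023: gacagccgggagaattcttacagggaatct
Prdx6 A_52_P540855: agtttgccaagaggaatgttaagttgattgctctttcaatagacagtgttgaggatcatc

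The main Sod1 probe, A_51_P367381, lay at chr16:90276179-90276238 on the plus strand and covered the end of the coding sequence and the start of the 3' untranslated region. The Cat probe lay at chr2:103305290-103305349 (minus strand), the Sod2 probe at chr17:11746836-11746895 (minus strand as annotated) and the Gpx4 probe at chr10:79836650-79836709 (plus strand). The Prdx2 probes lay at chr8:83560279-83560338, chr8:83556404-83556554 and chr8:83556603-83556662 (plus strand). Probe A_52_P550034 of Prdx2 was aligned over a span longer than its 60 bases, that is, across a gap on the genome, as were Prdx5 A_51_P174591 and Ccs A_51_P193536. The Prdx6 probes lay at chr1:161203565-161203624 and chr1:161209633-161209692 (minus strand). No pair of probes of the same gene shared a run of more than 8 bases. Probes of a gene were still read from the same RNA on the same hybridisations and are not independent. Prdx6 A_52_P258606 came from a cDNA clone described as peroxiredoxin 5, related sequence 3. The other 2 Sod1 probes, A_51_P425205 and A_52_P3581, came from a partial cDNA clone and lay upstream of the main probe, at chr16:90272955-90273014 and chr16:90273863-90273922. Whether the mouse Sod1 probes also capture transcripts of the human transgene was not tested, since no human sequence was used here.

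In Cy3, 14 probes were well above background on all 16 arrays. Sod3 A_51_P342969 and Sod1 A_51_P425205 were well above background on none of the 16 arrays, so no level and no fold is given for Sod3 and nothing is read from that Sod1 probe. Sod1 A_52_P3581 was above background on 10 arrays and Prdx6 A_52_P388359 on 7, at median Cy3 signals of 50.5 and 50 against local backgrounds with medians of 35 to 38 over the arrays. The main Sod1 probe had a median Cy3 signal of 6234 and no spot of any member was saturated. Sod1 A_52_P3581 was above background on 2 wild-type and 4 SOD1G93A arrays of 40 days and on 3 wild-type and 1 SOD1G93A arrays of 80 days, so its values are close to the limit of detection. Over the array as a whole, 46.0% to 55.3% of probes were well above background in Cy3, and the labelled tissue was checked with marker lists, whose mean ratio was above the reference on every array for neurons, motor neurons, oligodendrocytes and astrocytes and below it for liver and erythrocytes. Skeletal muscle markers were uneven between arrays, with a mean log2 ratio of 10 genes of 1.42 in SOD1G93A 40 days replicate 2 and 0.30 in SOD1G93A 80 days replicate 2, of -0.64 to -0.01 in 4 further arrays (wild-type 40 days replicate 3, SOD1G93A 40 days replicate 4, wild-type 80 days replicate 1 and SOD1G93A 80 days replicate 4) and of -1.53 to -1.26 in the others, and their part in the results below was not tested. Each slide held replicate 1, 2, 3 or 4 of all 4 groups and each group always had the same position on the slide, so that position and group cannot be told apart.

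Ratios to the reference pool are given as a description, because all arrays had the same dye orientation. By this measure Prdx6, Prdx5 and Gpx4 were richer in the cord, Gpx1 and Sod2 were richer in the neonatal organs, and Sod1 lay near the reference. Over the 16 arrays, Gpx1 had a mean log2 ratio of -1.28 ± 0.14 (SD), which is 2.42-fold lower in the cord than in the pool of neonatal organs. Sod2 had a mean of -0.78 ± 0.13, Cat of -0.38 ± 0.23, and the 3 Prdx2 probes of -0.31, -0.36 and -0.28. The main Sod1 probe was at a mean of 0.10 ± 0.11 and a range of -0.11 to 0.30. The 2 Ccs probes fell on either side of it, with means of 0.29 for A_51_P193536 and -0.16 for A_52_P400224. Gpx4, Prdx5 and the Prdx6 probe A_51_P496023 were above the reference, with means of 0.72 ± 0.12, 0.87 ± 0.09 and 1.06 ± 0.24, the last being 2.09-fold higher in the cord. The dim Sod1 probe A_52_P3581 was at 0.05 and the other Prdx6 probes were at 0.58 (A_52_P540855), 0.29 (A_52_P258606) and 0.12 (A_52_P388359). Of the 16 probes that could be tested, 9 were thus above the reference and 7 below it, but without loess normalization 2 instead of 9 were above it, so most of these directions depend on the scaling of the channels. The order is one of ratios to the pool and not of transcript amounts, since levels of different probes cannot be compared.

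The first question was whether Sod1 and the other enzymes differ between SOD1G93A and wild-type cord at 40 days. None of the 15 member probes tested, which read 9 genes, had a limma p under 0.05, where 4.47% of all probes tested had one, and after Benjamini-Hochberg adjustment over the 21334 probes tested no probe of the array passed. For Sod1 (A_51_P367381) no difference was detected. Its log2 ratios were -0.00011, 0.14, 0.16 and 0.02 in wild-type replicates 1 to 4 and 0.02, -0.01, 0.13 and 0.12 in SOD1G93A replicates 1 to 4, so both groups covered the same range. The difference was -0.011 (95% interval -0.15 to 0.12, limma p = 0.854, exact permutation p = 0.686). Its chaperone Ccs did not pass the test with either probe, the group means being 0.30 and 0.31 for A_51_P193536 and -0.18 and -0.13 for A_52_P400224 in SOD1G93A and wild-type. Sod2, the mitochondrial dismutase, had means of -0.67 ± 0.05 and -0.69 ± 0.08.

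The lowest p-values at 40 days belonged to the peroxide-removing enzymes Prdx2 and Cat, both lower in SOD1G93A cord without passing the test. Prdx2 A_51_P147207, which is printed on the array in 10 copies, had log2 ratios of -0.31, -0.31, -0.14 and -0.28 in wild-type and -0.36, -0.34, -0.44 and -0.40 in SOD1G93A mice. All 4 SOD1G93A arrays lay below all 4 wild-type arrays. Groups did not overlap in this way for 1 of the 15 member probes and for 2.83% of all probes. The difference was -0.13 (SE 0.06, limma p = 0.0534, adjusted p = 0.998, exact permutation p = 0.0286, the smallest that 4 against 4 arrays allow). That exact p, and the lower SOD1G93A array on all 4 slides, follow from the lack of overlap and add nothing to it. The other Prdx2 probes, A_52_P550034 and A_52_P893440, gave differences of -0.15 and -0.17 (exact permutation p = 0.171 for both), but with overlapping groups, since only slides 3 and 4 showed the lower value (for A_52_P893440, differences of -0.37 and -0.51 on slides 3 and 4 against 0.07 and 0.11 on slides 1 and 2). Over the 16 arrays these 2 probes followed each other with a Pearson r of 0.93, and A_51_P147207 followed them with 0.74 and 0.71, values which rest on the same hybridisations and are given as a description.

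Cat had log2 ratios of -0.07, -0.19, -0.01 and -0.27 in wild-type and -0.30, -0.40, -0.18 and -0.26 in SOD1G93A cord at 40 days. The groups overlapped, and the difference was -0.15 (SE 0.07, limma p = 0.0588, exact permutation p = 0.143). Within slides 1 to 4 it was -0.23, -0.21, -0.17 and 0.0047, and with the slide as a block in the fit the difference of -0.15 passed the threshold. The difference of Cat also passed the threshold without wild-type replicate 4 (-0.20) or without SOD1G93A replicate 3 (-0.19), as that of Prdx2 A_51_P147207 (-0.14) and of A_52_P893440 (-0.23) did without wild-type replicate 2. Over all 8 single omissions Cat ranged from -0.20 to -0.11 (limma p from 0.0182 to 0.161). Prdx2 A_51_P147207 ranged from -0.14 to -0.086 (limma p from 0.0476 to 0.147) and A_52_P893440 from -0.23 to -0.11 (limma p from 0.0467 to 0.255). Prdx2, Cat and Gpx1 are abundant in red blood cells. The 4 erythrocyte markers tested of a list of 12 (Hba-a1, Hbb-bt, Alas2 and Slc4a1) had mean log2 ratios of -3.97 to -3.62 in wild-type and of -4.05 to -3.72 in SOD1G93A arrays of 40 days and summed log2 Cy3 levels of 13.4 to 13.5 and 13.1 to 13.5. All 4 were lower in SOD1G93A cord, with none passing the test, and their part in the Prdx2 and Cat values was not tested. The other members at 40 days, Gpx1, Gpx4, Prdx5 and the Prdx6 probes, were nearer to 0, and the range of all member differences was -0.17 to 0.11, the upper end being that of the dim Sod1 probe A_52_P3581, from which nothing is read. Astrocyte markers were higher in SOD1G93A cord at this age for 8 of 10 genes, 4 of which passed the test, oligodendrocyte markers for 8 of 8, of which 3 passed, and neuron markers for 8 of 10, of which 1 passed. These calls stand beside 4.47% of all probes. Skeletal muscle markers were higher for 9 of 9 genes tested (median 0.81) and liver markers for 5 of 5 (median 0.18), with none passing. The part of these tissues and cell types in the Cat and Prdx2 values was not tested, and without SOD1G93A 40 days replicate 2, the array with the highest muscle markers, the differences were -0.12 for Cat and -0.14 for Prdx2 A_51_P147207, neither of which passed.

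**Figure D1:**
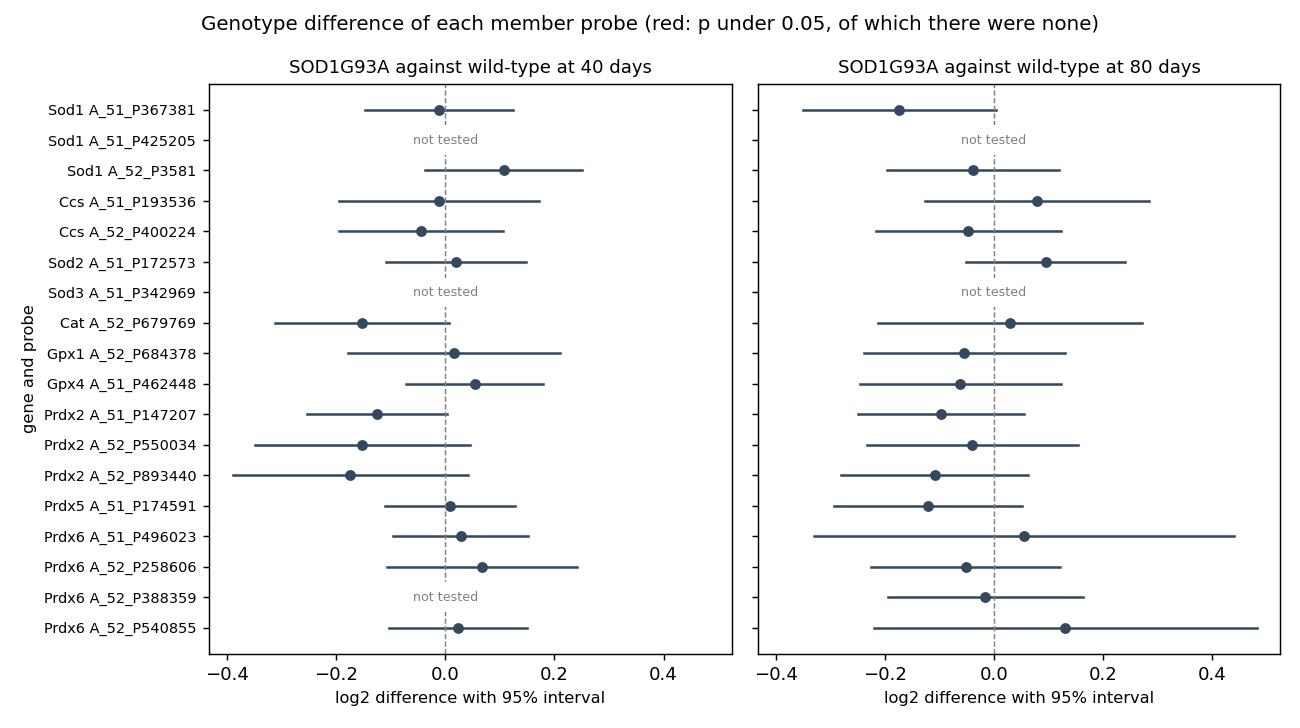
Difference between SOD1G93A and wild-type arrays (log2, horizontal axis) for each of the 18 member probes (vertical axis) at 40 days (left) and 80 days (right), each with its 95% interval from limma (4 against 4 arrays). Every interval covers 0, those of Prdx2 and Cat at 40 days and of Sod1 A_51_P367381 at 80 days only just, and probes marked as not tested were too dim.

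At 80 days again none of 16 member probes tested had a limma p under 0.05, beside 6.86% of all probes, none had groups that did not overlap, beside 4.31% of all probes, and no probe of the array passed after adjustment. The member nearest to the threshold was Sod1 itself. The main Sod1 probe had log2 ratios of 0.06, 0.28, 0.25 and 0.30 in wild-type and 0.16, 0.03, -0.11 and 0.11 in SOD1G93A cord. Wild-type replicates 2, 3 and 4 were above all SOD1G93A arrays and wild-type replicate 1 was within their range. The difference was -0.17 (SE 0.08, 95% interval -0.35 to 0.0029, limma p = 0.0532, adjusted p = 0.721, exact permutation p = 0.0857), which is 1.13-fold lower in SOD1G93A cord. Within slides the differences were 0.10, -0.25, -0.35 and -0.20, so that slide 1 went the other way. The difference passed the threshold without wild-type replicate 1 (-0.23) or without SOD1G93A replicate 1 (-0.21). Over all 8 single omissions it ranged from -0.23 to -0.12 (limma p from 0.0147 to 0.149). Of 11 other ways to process or fit the values, 5 gave a call for this probe, the largest difference being -0.24 with the Cy3 channel alone. In all 11 Sod1 was lower in SOD1G93A cord, but they use the same arrays and are not independent, and 1 of them was chosen after seeing the data. The dim Sod1 probe A_52_P3581 was above background on too few arrays of this age for anything to be read from it.

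Over all 16 member probes tested at 80 days, Sod1 included, 11 differences were below 0, with a median of -0.044 beside a median of -0.0012 over all probes. Several of these probes read the same gene. They also include the dim probes Sod1 A_52_P3581 and Prdx6 A_52_P388359, which passed the filter at this age only through wild-type arrays. With the brightest probe of each gene, 6 of 9 differences were below 0, with a median of -0.055. Prdx5 had log2 ratios of 1.09, 0.97, 0.84 and 0.84 in wild-type and 0.93, 0.84, 0.76 and 0.72 in SOD1G93A cord. The SOD1G93A array was the lower one on all 4 slides, yet the groups overlapped and the difference of -0.12 did not pass (SE 0.08, limma p = 0.148, exact permutation p = 0.200). Prdx2 had differences of -0.10, -0.04 and -0.11 with its 3 probes, and with the probe in 10 copies the SOD1G93A array was again the lower one on all 4 slides (exact permutation p = 0.171). Sod2 had a difference of 0.09 (exact permutation p = 0.143), with means of -0.83 ± 0.05 and -0.93 ± 0.10. Cat, whose lower mean in SOD1G93A cord at 40 days had not passed the test, was at -0.54 ± 0.04 in SOD1G93A and -0.57 ± 0.25 in wild-type cord. The range over wild-type arrays, from -0.87 to -0.36, was far wider than that over SOD1G93A arrays, from -0.59 to -0.50. Erythrocyte markers were lower in SOD1G93A cord at 80 days for 4 of 4 genes tested (median -0.13), with none passing. Neuron and astrocyte markers were lower for 8 of 10 each, of which 2 and 1 passed. Oligodendrocyte markers were higher for 5 of 8, of which 2 passed. The calls of these 3 lists stand beside 6.86% of all probes. Microglia markers were higher for 10 of 12 and skeletal muscle markers for 9 of 10 (median 0.49), with none passing. The part of these lists in the Sod1, Prdx5 and Prdx2 values was not tested.

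Whether the genotype difference itself changed between 40 and 80 days was tested with the interaction over the 16 arrays. None of 16 member probes had a limma p under 0.05, beside 6.68% of all probes. For the main Sod1 probe the genotype difference moved by -0.16 from 40 to 80 days (SE 0.10, limma p = 0.121, exact permutation p = 0.149 over 4900 arrangements within ages), for Cat by 0.18 (exact permutation p = 0.231) and for Prdx5 by -0.13 (exact permutation p = 0.166). For Sod1 the 95% interval was -0.37 to 0.05, wide enough to hold the whole difference seen at 80 days. Its value passed the threshold without wild-type 80 days replicate 1 (-0.22). Over all 16 single omissions it ranged from -0.22 to -0.11 (limma p from 0.0345 to 0.260).

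The age comparison gave the members that passed. Between 40 and 80 days, 3 of 16 member probes had a limma p under 0.05 in wild-type cord, beside 15.1% of all probes, and 3 of 16 in SOD1G93A cord, beside 16.9% of all probes, so the members passed about as often as the array as a whole. One of the 3 in SOD1G93A cord is the dim Sod1 probe A_52_P3581. It passed the filter on low signals through 4 SOD1G93A arrays of 40 days, where it is high, and 3 wild-type arrays of 80 days. It is not read as a change. Cat and Sod2 fell in both genotypes and Gpx4 rose in wild-type cord. The 2 age comparisons use different arrays but one estimate of the spread.

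**Figure D2:**
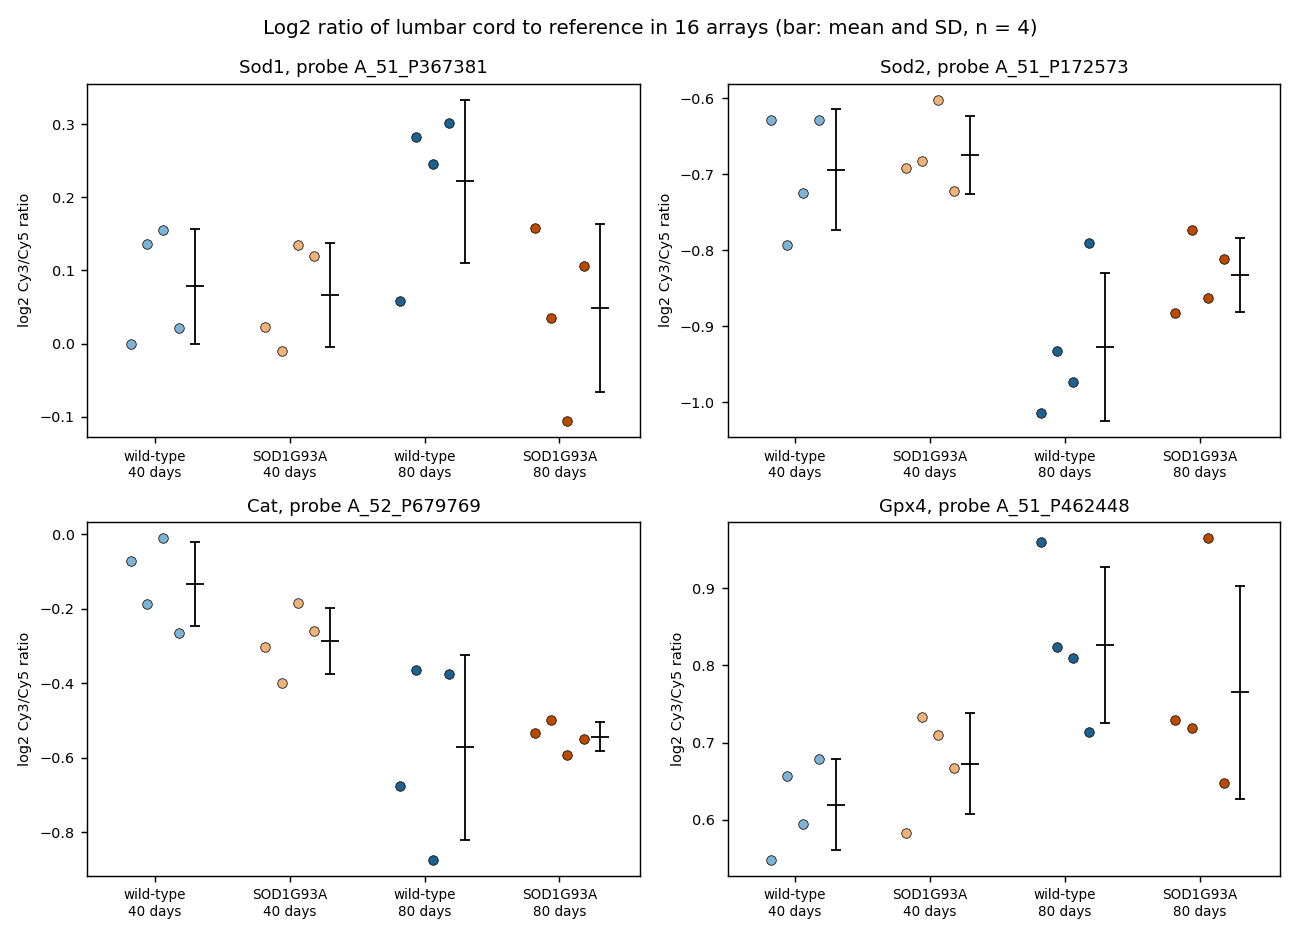
Log2 ratio of cord to reference (vertical axis) for Sod1 A_51_P367381, Sod2, Cat and Gpx4 in each of the 16 arrays, by group (horizontal axis), with the mean and SD of 4 arrays as a bar. Cat and Sod2 are lower at 80 than at 40 days in both genotypes, Gpx4 is higher in wild-type cord at 80 days, and the 3 highest Sod1 values are wild-type arrays of 80 days.

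Catalase showed the largest change of any member. The log2 ratios of Cat in wild-type cord were -0.07, -0.19, -0.01 and -0.27 at 40 days and -0.68, -0.36, -0.87 and -0.37 at 80 days, with no overlap. The fall was -0.44 (SE 0.10, limma p = 0.000313, adjusted p = 0.0321, exact permutation p = 0.0286), or 1.36-fold. Within slides it went from -0.11 on slide 4 to -0.86 on slide 3, where a fall on each slide follows from the lack of overlap. In SOD1G93A cord Cat went from -0.30, -0.40, -0.18 and -0.26 at 40 days to -0.53, -0.50, -0.59 and -0.55 at 80 days, again without overlap. There the fall was -0.26 (SE 0.10, limma p = 0.0166, adjusted p = 0.195, exact permutation p = 0.0286), or 1.20-fold. Without SOD1G93A 40 days replicate 3 it was -0.22 and no longer passed, nor did it without loess normalization (-0.19). The fall in wild-type cord kept its call without any one of the 16 arrays and under each of 10 other ways to process or fit the values. The change with age was 0.18 smaller in size in SOD1G93A cord, which is the interaction above and did not pass.

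Sod2 fell with age in both genotypes as well. In wild-type cord its log2 ratios were -0.63, -0.79, -0.72 and -0.63 at 40 days and -1.01, -0.93, -0.97 and -0.79 at 80 days, where replicate 4 of 80 days lay just at the edge of the younger group. The difference was -0.23 (SE 0.06, limma p = 0.00105, adjusted p = 0.0567, exact permutation p = 0.0571). In SOD1G93A cord Sod2 went from -0.69, -0.68, -0.60 and -0.72 to -0.88, -0.77, -0.86 and -0.81 with no overlap, a difference of -0.16 (SE 0.06, limma p = 0.0158, adjusted p = 0.191, exact permutation p = 0.0286). Sod2 was lower at 80 days on all 4 slides in both genotypes, which in SOD1G93A cord follows from the lack of overlap. Leaving out SOD1G93A 40 days replicate 3 ended the call in SOD1G93A cord (-0.13), as did leaving out the loess normalization (-0.12), and the interaction did not pass (0.08, exact permutation p = 0.338).

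Gpx4, the peroxidase of membrane lipids, had log2 ratios of 0.55, 0.66, 0.60 and 0.68 in wild-type cord at 40 days and of 0.96, 0.82, 0.81 and 0.71 at 80 days. All 4 older arrays were above all younger ones, and the rise was 0.21 (SE 0.07, limma p = 0.00924, adjusted p = 0.167, exact permutation p = 0.0286). Groups did not overlap in wild-type cord for 2 of the member probes, Cat and Gpx4, and for 7.66% of all probes. In 4 of the 10 other ways to process or fit the values the rise of Gpx4 was no longer called, down to 0.10 without loess normalization. In SOD1G93A cord Gpx4 went from a mean of 0.67 ± 0.07 to 0.77 ± 0.14 with overlapping groups (difference 0.09, exact permutation p = 0.343), and the interaction did not pass (-0.12, exact permutation p = 0.234). Sod1 in wild-type cord had means of 0.08 ± 0.08 and 0.22 ± 0.11, which did not pass the test (0.14, limma p = 0.0566, exact permutation p = 0.0857), and in SOD1G93A cord the means were 0.07 ± 0.07 and 0.05 ± 0.11. That wild-type value passed the threshold without wild-type 40 days replicate 3 (0.17), wild-type 80 days replicate 1 (0.20) or SOD1G93A 80 days replicate 3 (0.14). Over all 16 single omissions it ranged from 0.12 to 0.20 (limma p from 0.0109 to 0.144). Gpx1 went from -1.36 ± 0.19 to -1.18 ± 0.07 in wild-type cord (0.18, limma p = 0.0617, exact permutation p = 0.171). It passed without wild-type 40 days replicate 2 (0.24) or 3 (0.22), wild-type 80 days replicate 2 (0.21) or SOD1G93A 80 days replicate 4 (0.18). Over all 16 single omissions the Gpx1 difference ranged from 0.11 to 0.24 (limma p from 0.0144 to 0.231). The third value past the threshold in SOD1G93A cord belonged to the dim Sod1 probe A_52_P3581, at 0.09, 0.27, 0.17 and 0.02 at 40 days and -0.08, 0.07, -0.12 and 0.09 at 80 days. Its difference of -0.15 (limma p = 0.0382, exact permutation p = 0.114) came with overlapping groups and with 1 array above background at 80 days, and the call was lost when SOD1G93A 40 days replicate 2 or 3 or SOD1G93A 80 days replicate 1 or 3 was left out (-0.10, -0.14, -0.13 and -0.11).

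**Figure D3:**
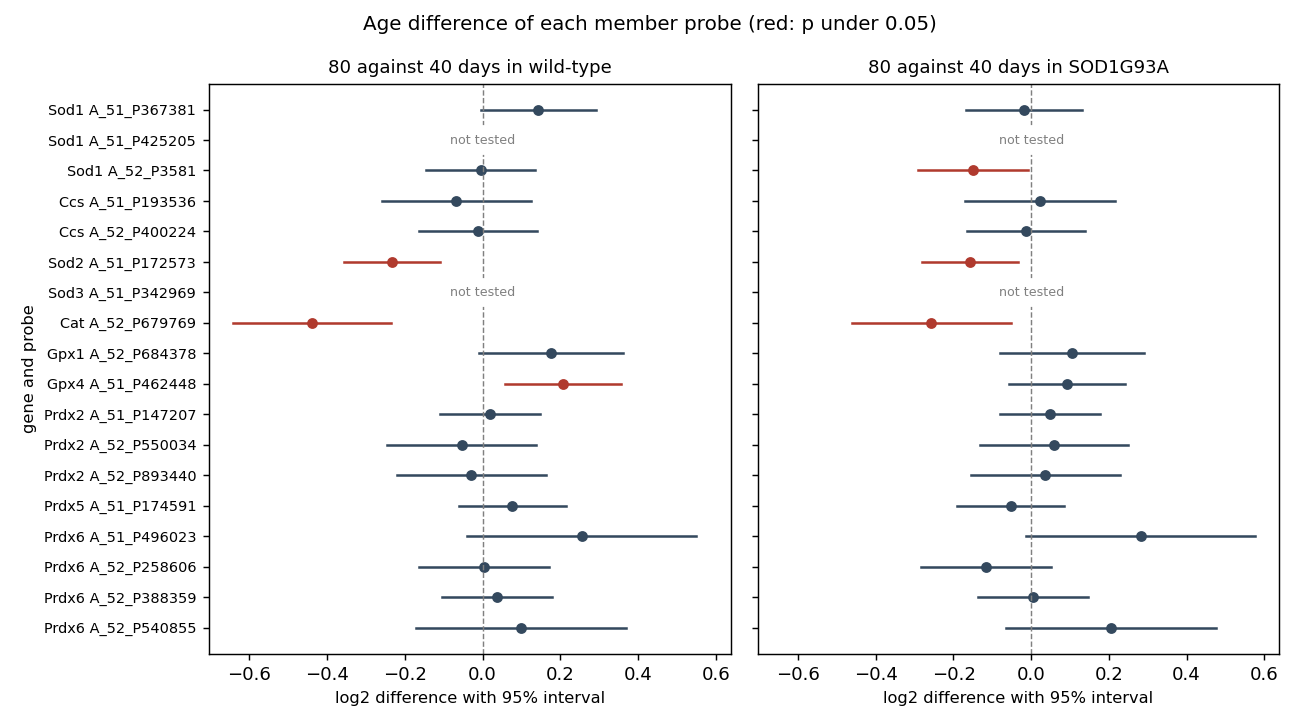
Difference between 80 and 40 days (log2, horizontal axis) for each of the 18 member probes (vertical axis) in wild-type (left) and SOD1G93A cord (right), with 95% intervals from limma over 16 arrays and probes with a p under 0.05 in red. Cat and Sod2 are red on the lower side in both panels, Gpx4 is red in wild-type and Sod1 A_52_P3581 in SOD1G93A cord, and the widest intervals belong to Prdx6.

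Markers of other cell types were also compared between the ages, and in whole tissue fewer cells of a type and less RNA per cell cannot be told apart. Their calls stand beside 15.1% of all probes in wild-type and 16.9% in SOD1G93A cord. Oligodendrocyte markers were lower at 80 days for 7 of 8 genes in both genotypes, with 4 called in each. Their summed log2 Cy3 level went from 18.2 to 18.3 at 40 days to 17.9 to 18.1 at 80 days in wild-type arrays and from 18.3 to 18.5 to 18.0 to 18.2 in SOD1G93A arrays, so that the older and younger arrays did not overlap by this measure. In the mean log2 ratio the ages overlapped in wild-type cord (5.16 to 5.47 at 40 days, 4.94 to 5.24 at 80 days). They did not in SOD1G93A cord (5.36 to 5.65 and 5.06 to 5.19). Neuron markers were higher at 80 days for 8 of 10 genes in wild-type cord, with 2 called higher (median 0.07). In SOD1G93A cord they were lower for 9 of 10, with 1 called higher and 1 lower (median -0.05). The neuron markers were thus called about as often as all probes. Astrocyte markers were higher at 80 days for 7 of 10 genes in wild-type cord, with 3 called higher (median 0.13), and lower for 7 of 10 in SOD1G93A cord, with 2 called lower and 1 higher (median -0.11). The part of these cell types in the Cat and Sod2 values was not tested. Without the array with the highest muscle markers, SOD1G93A 40 days replicate 2, the falls in SOD1G93A cord were -0.29 for Cat and -0.16 for Sod2, both past the threshold.

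The 2 bright Prdx6 probes were the members with the widest spread, and the SD was larger in both groups of 80 days, 0.29 and 0.32 with A_51_P496023, than in those of 40 days, 0.08 and 0.03. With A_51_P496023 the arrays of 40 days lay between 0.84 and 1.03 in both genotypes, whereas at 80 days the log2 ratios were 0.79, 1.21, 1.50 and 1.18 in wild-type and 1.00, 1.07, 1.13 and 1.69 in SOD1G93A cord. Probe A_52_P540855, some 6 kb away on the genome, gave 0.36, 0.47, 0.85 and 0.67 in wild-type and 0.48, 0.58, 0.61 and 1.20 in SOD1G93A cord at 80 days. With both probes wild-type replicate 3 and SOD1G93A replicate 4 were the highest arrays, and the Pearson r between the probes was 0.92 over the 16 arrays and 0.94 after removal of the group means. The SD within groups of A_51_P496023, 0.22, was at the 91.8th percentile of all probes tested. The mean log2 ratio of 12 microglia markers was 0.97 in that wild-type array and 1.28 in that SOD1G93A array, against 0.25 to 0.59 in the other 14 arrays. Their summed log2 Cy3 level spanned 12.6 to 13.5 in wild-type and 12.5 to 13.9 in SOD1G93A arrays of 80 days, against 12.5 to 12.7 at 40 days. In SOD1G93A cord 11 of the 12 markers were higher at 80 days with 3 called, beside 16.9% of all probes. In wild-type cord 10 were higher with 2 called, beside 15.1% of all probes. The 10 astrocyte markers also had their highest mean log2 ratio of the older arrays in these same 2 arrays, 2.95 in the wild-type and 2.88 in the SOD1G93A array, against 2.70 to 2.79 and 2.60 to 2.76 in the other arrays of 80 days and 2.65 to 2.91 at 40 days, with summed log2 Cy3 levels of 15.6 and 15.5. The part of the microglia and astrocyte markers in the Prdx6 values was not tested.

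The age difference of Prdx6 changed with those arrays. With A_51_P496023 it was 0.28 in SOD1G93A cord (SE 0.14, limma p = 0.0598, exact permutation p = 0.0286), with no overlap between the ages, which was true of 3 member probes (Sod2, Cat and this one) and of 12.4% of all probes in SOD1G93A cord. In wild-type cord it was 0.26 (limma p = 0.0854, exact permutation p = 0.143). Without both high arrays, an alternative chosen after seeing the data, the difference was 0.13 in SOD1G93A and 0.14 in wild-type cord, and with A_52_P540855 it was 0.05 and 0.01. The falls of Cat and Sod2 stayed past the threshold without both arrays in both genotypes, Cat at -0.34 in wild-type and -0.26 in SOD1G93A cord and Sod2 at -0.22 and -0.16. The genotype difference of Prdx6 at 80 days was 0.06 with A_51_P496023 and 0.13 with A_52_P540855, neither of which passed (exact permutation p = 0.80 and 0.600). The age difference with A_51_P496023 passed in wild-type cord without wild-type 80 days replicate 1 (0.38) or SOD1G93A 80 days replicate 4 (0.26). In SOD1G93A cord it passed without wild-type 80 days replicate 1 or 3 (0.28 for both) or SOD1G93A 80 days replicate 1 (0.36) or 2 (0.33). With A_52_P540855 it passed in SOD1G93A cord without SOD1G93A 80 days replicate 1 (0.28). Over all 16 single omissions, A_51_P496023 ranged from 0.14 to 0.38 in wild-type cord (limma p from 0.00992 to 0.305). In SOD1G93A cord A_51_P496023 ranged from 0.13 to 0.36 (limma p from 0.0287 to 0.284) and A_52_P540855 from 0.05 to 0.28 (limma p from 0.0492 to 0.627). The remaining Prdx6 probes, A_52_P258606 and A_52_P388359, gave no call with age.

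**Figure D4:**
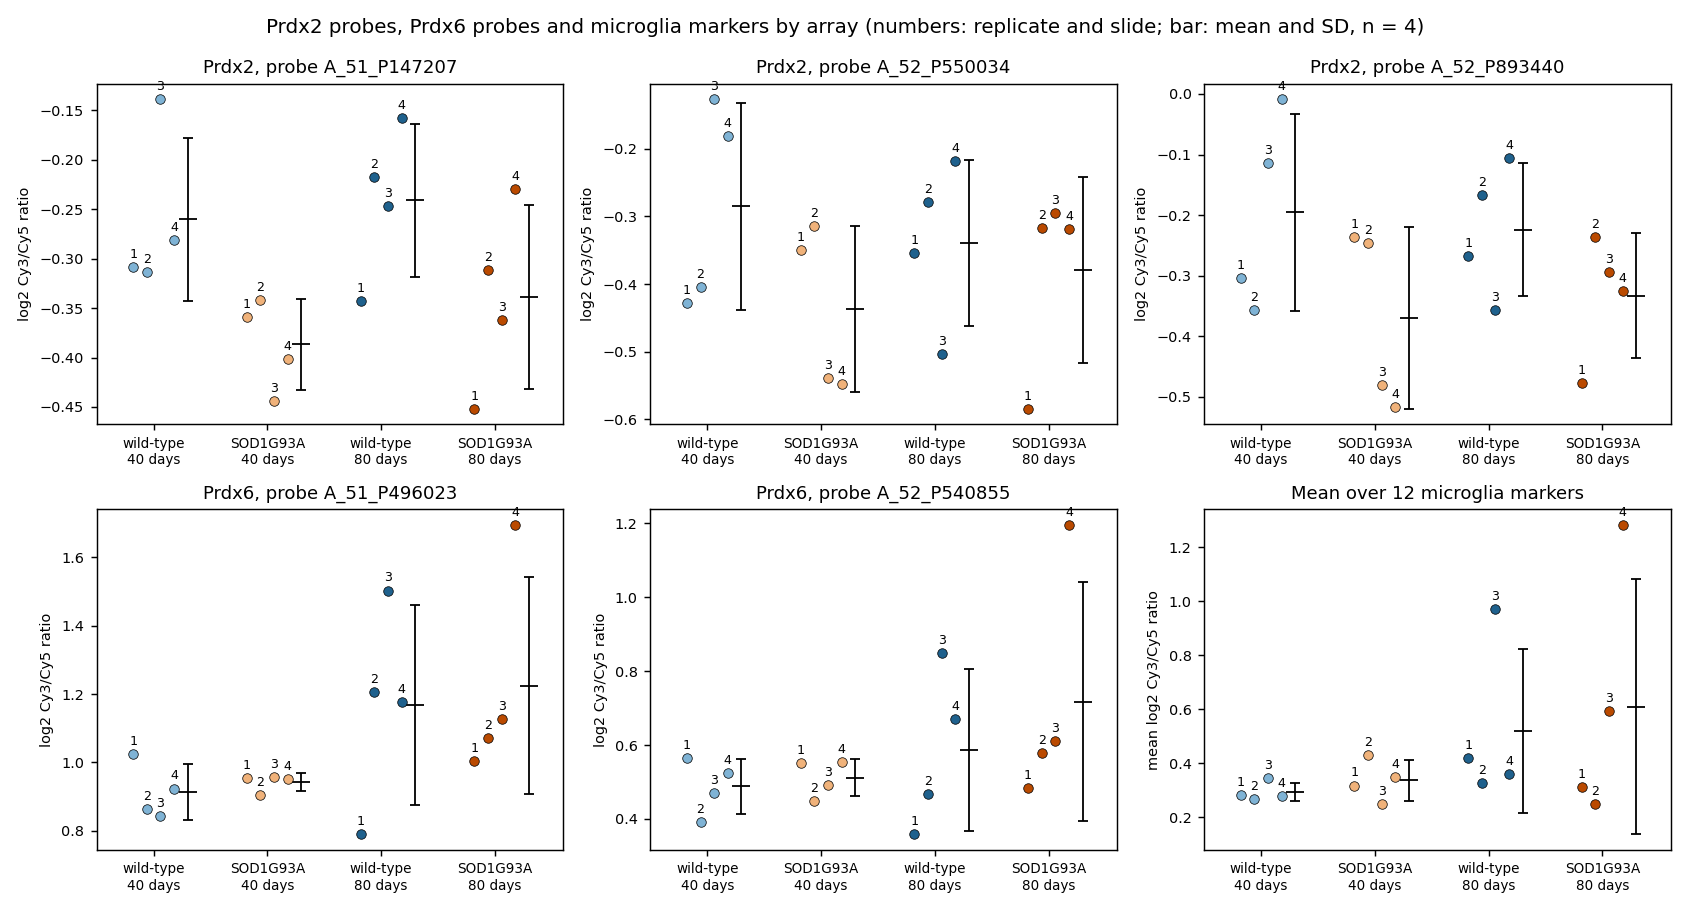
Log2 ratio of cord to reference (vertical axis) of 3 Prdx2 probes (top), 2 Prdx6 probes and the mean of 12 microglia markers (bottom) in each array, by group (horizontal axis), with the replicate number, which is also the slide, beside each point and the mean and SD of 4 arrays as a bar. At 80 days wild-type replicate 3 and SOD1G93A replicate 4 are highest for both Prdx6 probes and for the microglia markers, and at 40 days all SOD1G93A arrays are below the wild-type ones for Prdx2 A_51_P147207.

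The genes whose ratios followed the main Sod1 probe most closely over the 16 arrays were not members. They were Tomm7, a subunit of the import channel of the outer mitochondrial membrane (Pearson r of 0.88), the histone variant gene H2az1 (0.86), 2700029M09Rik (0.85), Ssu72, a phosphatase of RNA polymerase II (0.83), and Resf1 (0.82). After removal of the group means these values were 0.85, 0.81, 0.79, 0.70 and 0.82. Among the members the highest was Gpx1, with an r of 0.51. The lowest was Ccs A_51_P193536, with -0.68, whereas the Ccs probe A_52_P400224 had -0.0050 and the 2 Ccs probes followed each other with 0.46. All points share the reference and the normalization of their array, and no test is attached to these values.

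The neighbouring antioxidant systems were read against the share of all probes that passed. Of 17 genes of the thioredoxin and peroxiredoxin system, all tested, none passed between genotypes at 40 or 80 days, beside 4.47% and 6.86% of all probes. With age 2 rose (beside 15.1% of all probes) in wild-type cord, Srxn1, which repairs overoxidised peroxiredoxins (0.28, limma adjusted p = 0.30), and Txnip, the inhibitor of thioredoxin (0.21, adjusted p = 0.327), and 2 rose in SOD1G93A cord (beside 16.9%), Txnip (0.31, adjusted p = 0.131) and Txnrd3, a thioredoxin reductase (0.16, adjusted p = 0.143). The medians of the list were 0.0080 and 0.04, beside 0.01 and 0.0058 over all probes.

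Of 17 genes of the glutathione system, the glutathione transferase Gstm1 had the largest change, a rise with age of 0.73 in wild-type cord (SE 0.16, adjusted p = 0.0289) and 0.72 in SOD1G93A cord (SE 0.16, adjusted p = 0.0334), which passed over all probes in both genotypes. In wild-type cord Gstk1 (0.23) and Mgst1 (0.19) also rose and Mgst3 fell by 0.18, and in SOD1G93A cord Ggct fell by 0.20 and Mgst3 fell by 0.21, all with a limma p under 0.05 and none after adjustment, so that 4 of 17 passed in wild-type cord beside 15.1% of all probes and 3 of 17 in SOD1G93A cord beside 16.9%. Between genotypes none of the 17 passed at 40 days and 2 were lower in SOD1G93A cord at 80 days, Gpx8 (-0.22, limma adjusted p = 0.721) and the mitochondrial and peroxisomal transferase Gstk1 (-0.20, adjusted p = 0.682). The medians of the list with age were -0.04 in wild-type and -0.06 in SOD1G93A cord.

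Of 9 genes of copper and iron handling, 1 passed between genotypes at 40 days, the haem oxygenase gene Hmox1 (-0.31 in SOD1G93A cord, limma adjusted p = 0.998), and none at 80 days. With age the ferritin heavy chain gene Fth1 rose by 0.27 and the copper importer gene Slc31a1 fell by 0.22 in wild-type cord, while Hmox1 rose by 0.46 and the ferritin light chain gene Ftl1 by 0.28 and Hmox2 fell by 0.10 in SOD1G93A cord. All had an unadjusted limma p under 0.05 and none passed after adjustment, and 2 of 9 and 3 of 9 stand beside the same 15.1% and 16.9% of all probes. The medians of the list with age were -0.06 and 0.07.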

How the data were processed

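Lumbar spinal cord RNA of 16 mice (4 per group) was hybridised with Cy3 against a Cy5 reference on Agilent whole mouse genome arrays. The deposited intensity values are spot and background signals from Agilent Feature Extraction 9.5.3.1 (per the labels). A further deposited table gives log2 values after the authors' own filtering and normalization (Agi4x44PreProcess and limma). Its quantiles differ between the ages, so it served only as an alternative.

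Median spot signals were background-corrected with normexp (offset 50) after local backgrounds more than 20 units above their own spot had been set to the array median, then normalized by loess in limma 3.58.1 under R 4.3.3. Flagged spots were left out and copies of a probe averaged. Probes well above background in Cy3 on at least 3 of 4 arrays of a group were tested with lmFit and eBayes, within an age for genotype and over all 16 arrays for age and interaction. As in the study's methods, calls rest on an unadjusted p under 0.05, with Benjamini-Hochberg values beside them and two-sided exact permutation tests for members. The number of arrays limits the precision. The tests were checked on simulated data. Members and lists were chosen with earlier results of these data known, and all members are named. Other lists are named by their calls, and the 5 probes most like Sod1 by Pearson correlation. Slide and replicate number coincide, and deviations of arrays with the same number correlated between -0.14 and 0.23 over 24 pairs, so numbers were not used to pair arrays. Alternatives were another background treatment, processed signals, Cy3 alone, the series matrix, no loess, no filter, array weights, 16 arrays per fit, a block, single arrays left out and 2 arrays with high microglia markers left out, the last chosen after seeing the data.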

Additional observations from a re-analysis of the deposited data

Results flagged for a closer look

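Among 72 groups of 4 arrays, 18 probes in 4 groups each, 3 held a value that stood apart from the other 3 arrays, about as many as chance gives at 1 in 20. Sod3 A_51_P342969 was lowest in wild-type 40 days replicate 2, at a log2 ratio of -0.14 against 0.05 to 0.09, with all arrays at background. Prdx2 A_52_P550034 was lowest in SOD1G93A 80 days replicate 1, at -0.58 against -0.32 to -0.29. Prdx6 A_51_P496023 was lowest in SOD1G93A 40 days replicate 2, at 0.90 against 0.95 to 0.96, a gap that is small beside the spread of this probe at 80 days.

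No member differed between the ages in its genotype comparison. Of the neighbouring lists, 1 of 17 genes of the thioredoxin and peroxiredoxin system, 1 of 17 of the glutathione system and 0 of 9 of copper and iron handling did in the interaction test, beside 6.68% of all probes. The genotype difference of Txnrd3 moved by 0.22 from 40 to 80 days (limma adjusted p = 0.602) and that of Gstk1 by -0.22 (adjusted p = 0.724), both with an unadjusted p under 0.05.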

How the results depend on the processing

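The falls of Cat and Sod2 with age in wild-type cord kept their direction and their call under all 10 other ways to process or fit the values and without any one of 16 arrays. In SOD1G93A cord both lost the call without loess normalization (Cat -0.19, Sod2 -0.12), and Gpx4 lost it in wild-type cord with processed signals (0.16), the Cy3 channel alone (0.12), no loess normalization (0.10) and the authors' table (0.11). The cause was not tested. Of 79 differences of member probes, 43 changed sign in at least 1 of 1802 alternatives in all, none of them among the 6 with a p under 0.05.

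Counts over all probes moved by more than 1.5 times as follows. At 40 days they went from 953 to 247 with local backgrounds as measured, 1615 with processed signals, 554 with Cy3 alone, 1881 with no filter and 537 with the authors' table. At 80 days they went from 1481 to 2412 with no filter and 2388 with array weights. The interaction went from 1466 to 797 with local backgrounds as measured and 2459 with no filter. The age comparison went from 3305 to 5004 with no filter and 9938 with the authors' table in wild-type cord, and from 3714 to 2472 without loess normalization and 10619 with the authors' table in SOD1G93A cord. In that table the median of all probes differed between the ages by -0.13 in wild-type and -0.14 in SOD1G93A cord, and 378 of the wild-type and 655 of the SOD1G93A calls were higher. Scaling also moved the share of calls that were higher, at 40 days from 54.6% to 86.4% with processed signals and 8.70% without loess normalization, at 80 days from 54.5% to 35.6% and 81.5%, in the interaction from 46.6% to 19.3% and 91.0%, and with age from 45.0% to 60.01% and 8.28% in wild-type and from 51.1% to 34.8% and 69.1% in SOD1G93A cord. Without wild-type 40 days replicate 4 (1885) or SOD1G93A 80 days replicate 3 (971) the count also moved past 1.5 times.

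Counts of member probes called went from 0 to 1 at 40 days (no filter, array weights, the replicate block and the authors' table), at 80 days (no background subtraction, Cy3 alone, no filter, array weights and 16 arrays in the fit) and in the interaction (no background subtraction, processed signals and Cy3 alone). Over all probes, in the same order, 1881 of 41174 and 1361, 959 and 537 of 21334 were called at 40 days. At 80 days it was 1616 and 1127 of 21600, 2412 of 41174, and 2388 and 1833 of 21600. In the interaction it was 1462, 2145 and 982 of 21949. The member counts, of 16 probes, went from 3 to 5 in wild-type cord with age (no background subtraction and the authors' table) and from 3 to 5 in SOD1G93A cord (the authors' table). Of all 21949 probes tested, no background subtraction called 3360 in wild-type cord. The authors' table called 9938 there and 10619 in SOD1G93A cord, a larger share than that of the members. Leaving out 1 array gave 0 to 2 member probes at 40 days, 0 to 1 at 80 days and in the interaction, 3 to 5 in wild-type and 0 to 4 in SOD1G93A cord. Over all probes it gave 707 to 1885 at 40 days, 971 to 1829 at 80 days and 1184 to 1777 in the interaction. With age it gave 2631 to 3464 in wild-type and 2682 to 4018 in SOD1G93A cord. The 0 in SOD1G93A cord came without SOD1G93A 40 days replicate 3. Without loess normalization 2 instead of 9 probes were above the reference, and with local backgrounds as measured the neighbouring lists had 12 instead of 21 calls.

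Values near 0 changed sign. Sod1 at 40 days was 0.022 without background subtraction, 0.0010 with processed signals and 0.013 with Cy3 alone, and -0.038 to 0.014 without 1 array. Its age difference in SOD1G93A cord was 0.0067 without loess normalization and -0.055 to 0.033 without 1 array. Cat at 80 days was -0.041 with array weights, -0.070 without both arrays with high microglia markers and -0.072 to 0.098 without 1 array. Sod2 at 40 days was -0.025 with Cy3 alone, -0.050 without loess normalization, -0.022 with the authors' table and -0.014 to 0.041 without 1 array. The interaction of Gpx4 was 0.014 without loess normalization.

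With the replicate number, which is also the slide, as a block, 959, 1689, 1504, 3418 and 3666 probes were called at 40 days, at 80 days, in the interaction and with age in wild-type and SOD1G93A cord. Of the members, Cat at 40 days was then called (-0.15) and Sod1 A_52_P3581 with age in SOD1G93A cord no longer was (-0.15). Deviations of arrays with the same number had a median correlation of 0.0030 over 24 pairs, against -0.01 over 72 pairs with different numbers. Between SOD1G93A arrays of 40 and 80 days, where the block ended that call, each array correlated best with its own number (0.09 to 0.23, against -0.18 to 0.07 with other numbers). The slide itself is part of the design, since each slide held an array of every group. Since 1 of these 4 values was under 0.1 and the other pairs of groups did not all show it, the numbers were not taken to pair the arrays.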
